A study of Mus musculus with 10 samples.

Results

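The IFITM family was described by 4 genes, Ifitm1, Ifitm2, Ifitm3 and Ifitm6, taken by gene symbol from the 55573 genes in each count file, where each symbol had 1 row. RNA was sequenced from bone marrow hematopoietic stem and progenitor cells (HSPCs) of C57BL/6 mice, 16 weeks of age, of which 5 libraries came from mice treated with EGF (epidermal growth factor) and 5 from mice treated with saline, both given under the skin. All mice of both groups had received 500 cGy of total body radiation and were examined 6 weeks later, and no unirradiated group was analysed here. No source used here states the gate by which HSPCs were isolated or the dose of EGF. Nothing in the labels ties a library to its own mouse, so p-values measure only how far these libraries vary, and that variation may be technical. The 4 genes were chosen by their measured levels per library, EGF against saline, so the difference between the groups is given for them as a description, with its standard error and without a test.

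IFITM proteins are small membrane proteins with a CD225 domain that sit in the plasma membrane and in endosomes and hinder the fusion of enveloped viruses with the cell. Interferon induces their genes in most cell types through the interferon receptors, the JAK kinases and a complex of STAT proteins with IRF9, which binds the interferon-stimulated response element (ISRE) in promoters. Stem cells express some of them without interferon. Ifitm1 protein is found mainly at the cell surface, while Ifitm3 carries a tyrosine-based sorting signal near its N-terminus and is found mainly in endosomes, and Ifitm2 is a close relative of Ifitm3.

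The members lie together on chromosome 7 (GRCm38, GENCODE M21), within 63.1 kb. Ifitm2 (ENSMUSG00000060591) lies at chr7:140954837-140955987 on the minus strand, Ifitm1 (ENSMUSG00000025491) at chr7:140967221-140969825 on the plus strand, Ifitm3 (ENSMUSG00000025492) at chr7:141009586-141010770 on the minus strand and Ifitm6 (ENSMUSG00000059108) at chr7:141015699-141017924 on the minus strand. Their RefSeq promoter windows (GRCm38.p6), from 250 bases before to 50 bases after the transcript start, are printed for the 3 members that were well sampled, since the element that interferon acts through lies in such windows. Capitals mark matches to the ISRE core, spelled GAAA, any 2 bases, GAAA, and searched on both strands. The windows are chr7:140967826-140968125 on the plus strand for Ifitm1, chr7:140955912-140956211 on the minus strand for Ifitm2 and chr7:141010695-141010994 on the minus strand for Ifitm3, each read 5′ to 3′ along the gene.
Ifitm1: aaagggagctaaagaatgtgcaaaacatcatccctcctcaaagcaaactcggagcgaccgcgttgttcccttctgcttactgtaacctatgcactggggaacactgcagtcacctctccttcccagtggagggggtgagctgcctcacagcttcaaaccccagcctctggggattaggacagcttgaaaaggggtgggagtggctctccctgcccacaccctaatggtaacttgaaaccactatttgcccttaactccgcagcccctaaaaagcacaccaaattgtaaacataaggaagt
Ifitm2: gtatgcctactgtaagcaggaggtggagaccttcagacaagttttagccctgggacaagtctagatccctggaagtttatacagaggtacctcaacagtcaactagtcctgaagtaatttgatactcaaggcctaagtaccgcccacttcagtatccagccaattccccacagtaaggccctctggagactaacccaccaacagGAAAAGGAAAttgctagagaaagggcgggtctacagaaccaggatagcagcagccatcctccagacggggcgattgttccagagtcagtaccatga
Ifitm3: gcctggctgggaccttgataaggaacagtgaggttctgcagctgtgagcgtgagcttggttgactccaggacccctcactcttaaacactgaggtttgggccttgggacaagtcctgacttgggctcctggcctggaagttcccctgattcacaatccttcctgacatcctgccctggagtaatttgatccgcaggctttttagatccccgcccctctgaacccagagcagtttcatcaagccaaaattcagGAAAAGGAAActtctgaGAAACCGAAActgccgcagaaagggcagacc
The Ifitm2 window held 1 ISRE core, from base -46 to base -37 relative to the start. The Ifitm3 window held 2, from base 3 to 12 and from base 20 to 29, counting the start as base 1. These letters were not in the Ifitm1 window, nor in that of Ifitm6 (chr7:141016843-141017142 on the minus strand). Both of these windows lie wholly inside the GENCODE bounds of their genes. The outermost annotated 5′ ends of Ifitm1 (base 140967221) and Ifitm6 (base 141017924) were therefore not searched. The core was present in 3.44% of all 32851 promoter windows of the same length and in 20 of 40 windows of the interferon-stimulated genes listed for comparison. The GAS core, spelled TTC, any 3 bases, GAA, and searched likewise, is an element bound by STAT dimers and was present in 8.3% of all windows. It matched once in the Ifitm3 window, from base 14 to 22, overlapping the second ISRE core there, and once in the Ifitm6 window, from base -10 to -2.

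**Figure D1:**
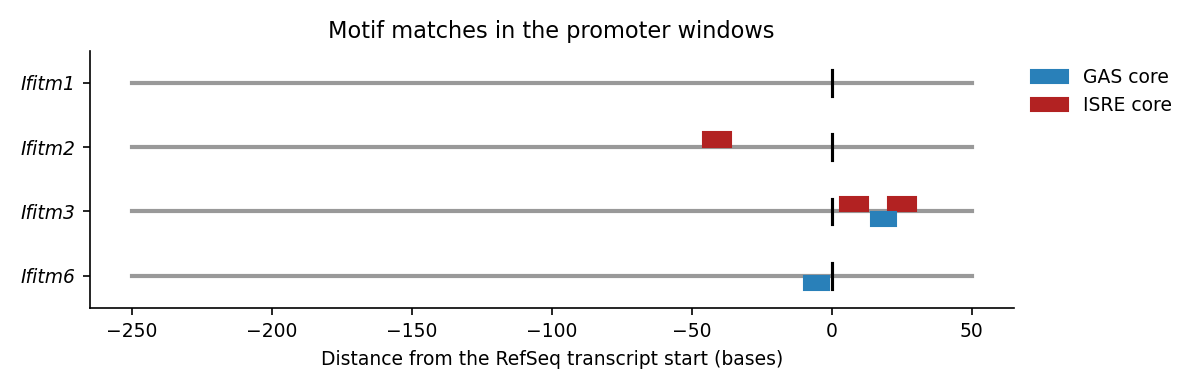
Motif matches in the promoter windows of the 4 genes, drawn by distance from the RefSeq transcript start in bases (x axis, start marked by a black bar), with ISRE cores in red and GAS cores in blue. Ifitm3 has 2 ISRE cores just after the start, Ifitm2 has 1 before it, and the windows of Ifitm1 and Ifitm6 have no ISRE core. The windows of Ifitm1 and Ifitm6 lie inside the GENCODE bounds of the genes and do not reach their outermost 5′ ends.

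Total counts ranged from 6805106 to 8370820 per library. EGF replicate 5 stood apart from the rest: 12731 genes had a count in it, against 18734 to 20046 in the other 9 libraries, so results are given with and without it where it moves them. Stem and progenitor markers were well represented, with 19 of 22 listed genes counted in every library and a summed level of 2150 to 2356 CPM (a gene's counts relative to its library's total, scaled by the TMM method) in EGF libraries and 1849 to 2200 CPM in saline libraries. Kit, the receptor for stem cell factor, averaged 473 ± 20.3 CPM in EGF libraries and 417 ± 26.9 CPM in saline libraries (SD, n = 5 each). Mpo, the myeloperoxidase of granulocytes and their precursors, averaged 1837 ± 298 CPM in EGF libraries and 2841 ± 1120 CPM in saline libraries. T and NK cell markers summed to 3.91 CPM in EGF replicate 5 and 37.4 to 62.6 CPM in the other EGF libraries, against 44.3 to 62.5 CPM with saline. Of the stem and progenitor markers none was called with all 10 libraries, but without EGF replicate 5 edgeR called Prom1, the gene of the surface protein CD133, lower with EGF (log2 fold change -2.06, SE 0.32, adjusted p = 0.0414, against -2.37, SE 0.66, adjusted p = 0.552 with all libraries). Prom1 was at 1.5, 1.92, 2.27, 1.76 and 0 CPM in EGF replicates 1 to 5, against 4.3, 5.56, 11.7, 7.23 and 10.1 CPM in saline replicates 1 to 5. The list as a whole did not move in the fit without EGF replicate 5. Of its 21 tested genes 10 had a log2 fold change above 0 and 11 below, with a median of -0.0019. In that fit 4 of all 13104 genes (0.0305%) were called lower.

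Ifitm1, Ifitm2 and Ifitm3 were expressed in every library, and Ifitm6 was close to the limit of detection. Per kilobase of exon, the scale on which genes can be compared, Ifitm3 averaged 76.5 ± 35.2 CPM per kb with EGF and 92.5 ± 14.2 CPM per kb with saline. Ifitm1 averaged 37.5 ± 6.72 CPM per kb with EGF and 57.9 ± 6.29 CPM per kb with saline. Ifitm2 averaged 32.9 ± 3.47 CPM per kb with EGF and 40.3 ± 3.94 CPM per kb with saline (SD, n = 5 each). In saline libraries the order was Ifitm3, Ifitm1, Ifitm2 and Ifitm6 in each of the 5 libraries. The place of Ifitm3 above Ifitm1 there rests on the exon lengths used. These were 678 bases for Ifitm3 and 1094 for Ifitm1, over all annotated transcripts, while the ratio of their saline counts was 0.923 to 1.08. Which transcripts were expressed was not examined, and if that of Ifitm1 is shorter, its level per kb is too low. The level per kb of Ifitm2, and so its place, is uncertain as well. Exons of another gene on the same strand, Gm45717, cover 40.9% of its exonic bases, and it may be too low if shared reads were not counted. With EGF, Ifitm1 and Ifitm2 did not differ beyond their spread. The order of the saline libraries was seen in 8 of the 10 libraries in all; Ifitm2 lay above Ifitm1 in EGF replicate 4, and Ifitm3 lay below both in EGF replicate 5, where the 3 genes lay between 27.6 and 29.7 CPM per kb. By level per kb, Ifitm3 stood at percentile 97.3, Ifitm1 at 94.6 and Ifitm2 at 92.4 of the 12874 genes that passed the filter on low counts, a filter that 3 of the 4 members passed. In bulk RNA, fewer cells that express a gene and less of its RNA per cell cannot be told apart.

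Ifitm1 was at 46.2, 37.2, 50.7, 38.2 and 32.5 CPM in EGF replicates 1 to 5, against 60.2, 65.6, 73.9, 55.7 and 61.2 CPM in saline replicates 1 to 5. Every EGF library lay below the lowest saline library. Its mean was 41.0 ± 7.36 CPM in EGF libraries and 63.3 ± 6.88 CPM in saline ones (SD, n = 5 each), a log2 fold change of -0.63 (SE 0.14) by edgeR. These levels rest on 233 to 370 counts per EGF library and 416 to 624 counts per saline library, for which counting error alone is 4% to 6.55%. Without EGF replicate 5 the log2 fold change was -0.56 (SE 0.11).

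Ifitm2 was at 23.5, 21.4, 20.0, 24.1 and 18.7 CPM in EGF replicates 1 to 5, against 30.5, 24.3, 27.2, 24.4 and 25.5 CPM in saline replicates 1 to 5. The groups did not overlap, but the highest EGF library, at 24.1 CPM, and the lowest saline library, at 24.3 CPM, were separated by less than the counting error of either. Its mean was 21.6 ± 2.27 CPM in EGF libraries and 26.4 ± 2.58 CPM in saline ones (SD, n = 5 each), a log2 fold change of -0.29 (SE 0.14), with 134 to 205 counts per EGF library and 182 to 241 per saline library. The counts of Ifitm2 are uncertain for another reason. Exons of the annotated gene Gm45717, on the same strand, cover 40.9% of its exonic bases, and 48.5% of its words of 50 bases also occur in transcripts of other genes, such as Gm45717 with 36.1% and Gm11951 with 14.9%. Gm45717 was listed at 0 in all 10 libraries, and no source used here states how the counting treated shared reads. The shared share was 5.02% for Ifitm1, 10% for Ifitm3 and 0% for Ifitm6.

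Ifitm3 was at 63.8, 82.6, 51.7, 42.4 and 18.7 CPM in EGF replicates 1 to 5, against 57.9, 60.6, 79.8, 57.0 and 58.3 CPM in saline replicates 1 to 5. The groups overlapped: the highest of all 10 libraries was EGF replicate 2 and the lowest EGF replicate 5. Its mean was 51.9 ± 23.9 CPM in EGF libraries and 62.7 ± 9.64 CPM in saline ones (SD, n = 5 each), a log2 fold change of -0.27 (SE 0.30), smaller than its standard error. Without EGF replicate 5, the EGF mean was 60.2 ± 17.4 CPM (SD, n = 4) and the log2 fold change -0.06 (SE 0.17). Without EGF replicate 2 the log2 fold change was -0.51, and without Saline replicate 3 it was -0.17. The coefficient of variation (SD over mean) of Ifitm3 was 46% with EGF and 15.4% with saline, against 18% with EGF and 10.9% with saline for Ifitm1. Each of these figures for Ifitm3 rests on 1 library: without EGF replicate 5 it was 28.9% with EGF, and without Saline replicate 3 it was 2.6% with saline. For Ifitm1 in saline libraries it was 6.72% without Saline replicate 3.

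Ifitm6 had 2, 4, 2, 9 and 0 counts in EGF replicates 1 to 5, against 1, 4, 5, 12 and 7 counts in saline replicates 1 to 5. The counts sum to 17 with EGF and 29 with saline, and the ranges overlap. The 0 in EGF replicate 5 allows a level of up to 0.419 CPM (3 counts, counting error only). A difference between the groups was not detectable at this depth, and the gene did not pass the filter on low counts.

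**Figure D2:**
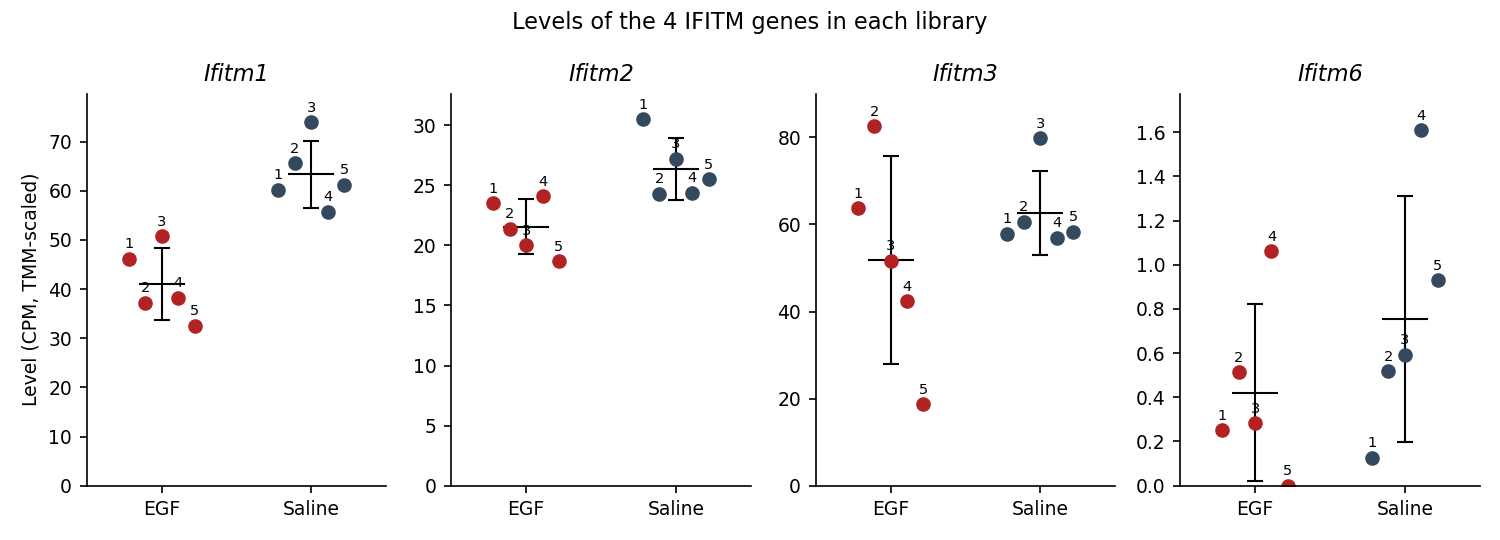
Level of each of the 4 genes in every library (y axis, TMM-scaled CPM from 0, a separate scale for each gene), EGF in red and saline in blue, with the replicate number above each point; bars give the mean and SD of 5 libraries. Ifitm1 lies between 32.5 and 50.7 CPM with EGF, below the 55.7 to 73.9 CPM of saline, Ifitm2 is separated by a narrow gap, Ifitm3 spreads from 18.7 to 82.6 CPM with EGF, and Ifitm6 stays below 2 CPM.

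Of the 3 members that passed the filter, 2 (Ifitm1 and Ifitm2) had all EGF libraries below all saline libraries, as had 213 of the 12874 genes tested, which is 1.65%; 208 (1.62%) had all EGF libraries above, so that 421 (3.27%) separated the groups in either direction. Nothing is read from that count, since the members were picked with these levels known. A log2 fold change at or below that of Ifitm1 was found for 4.3% of the genes tested, at or below that of Ifitm2 for 20.4% and at or below that of Ifitm3 for 22%. In edgeR's quasi-likelihood test, adjusted over all 12874 genes by the Benjamini-Hochberg method, 1 gene (0.00777%) was called higher with EGF, the activation marker Cd69, and 0 (0%) were called lower. At an unadjusted p under 0.05 edgeR had 790 genes (6.14%) higher and 352 (2.73%) lower. DESeq2 called 36 higher (0.432%) and 20 lower (0.24%), and limma-voom called 1 higher and 0 lower, or 8 higher (0.0621%) and 4 lower (0.0311%) once libraries were weighted by quality. Without EGF replicate 5, edgeR called 4 genes in each direction (0.0305% each). All 3 well-sampled members had a log2 fold change below 0 in each of the 19 alternative analyses, but the size for Ifitm3 ranged from -0.51 to -0.03. These analyses reuse the same libraries. For Ifitm1 and Ifitm2, whose groups did not overlap, leaving 1 library out could hardly reverse the sign.

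**Figure D3:**
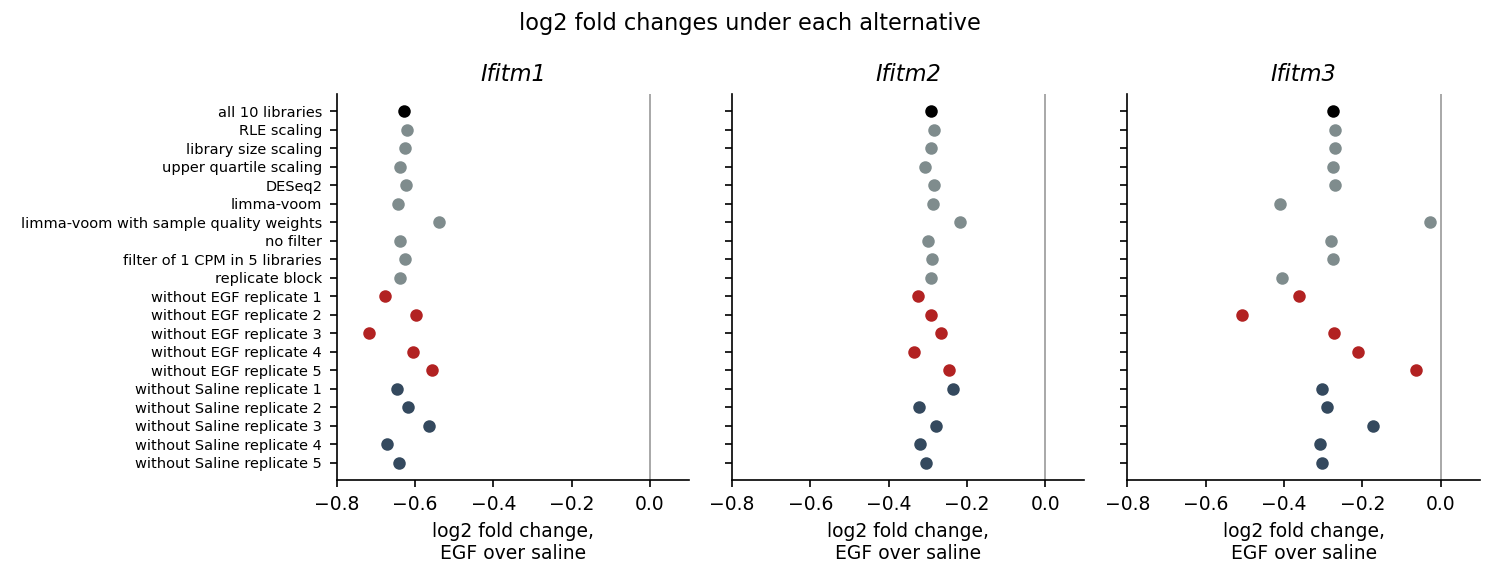
log2 fold change, EGF over saline (x axis), of Ifitm1, Ifitm2 and Ifitm3 with all 10 libraries (black), under other scalings, tests and filters and with the replicate number as a block (grey), and with 1 EGF library (red) or 1 saline library (blue) left out. Ifitm1 stays between -0.72 and -0.54 and Ifitm2 between -0.34 and -0.22, while Ifitm3 moves between -0.51 and -0.03.

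Within a library, Ifitm3 had 1.38, 2.22, 1.02, 1.11 and 0.575 times the counts of Ifitm1 in EGF replicates 1 to 5, against 0.962, 0.923, 1.08, 1.02 and 0.952 times in saline replicates 1 to 5. The ratio was thus close to even in all saline libraries, and both above and below that in EGF libraries. The ratio of Ifitm2 to Ifitm1 counts was 0.537 ± 0.0906 with EGF and 0.42 ± 0.0566 with saline (SD, n = 5 each), and the groups overlapped. Across the 10 libraries, with the group means removed, log2 CPM of Ifitm1 and Ifitm3 had a Pearson r of 0.572 and a Spearman rho of 0.588 (exact two-sided permutation p within groups 0.189 and 0.147; adjusted over the 6 pairs of members 0.659 and 0.883). The r was 0.632 without the 2 libraries farthest from the median of Ifitm1, and 0.149 without EGF replicate 5, so it rests on that library. The r for Ifitm1 and Ifitm2 was 0.218 and rho 0.236 (exact permutation p 0.581 and 0.541; adjusted 0.871 and 0.948), and it was 0.506 without the 2 farthest libraries and -0.144 without EGF replicate 5. For Ifitm2 and Ifitm3 r was 0.432 and rho 0.224 (exact permutation p 0.3 and 0.575; adjusted 0.659 and 0.948), and it was 0.765 without the 2 farthest libraries and -0.0899 without EGF replicate 5. The 3 pairs with Ifitm6, whose counts are few, had r between -0.00179 and 0.383 and rho between -0.152 and 0.0303, with adjusted exact permutation p of 0.659 to 0.996 for r and 0.948 for rho. Without the 2 farthest libraries these r were between -0.399 and 0.291. No pair passed the test with all 10 libraries.

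**Figure D4:**
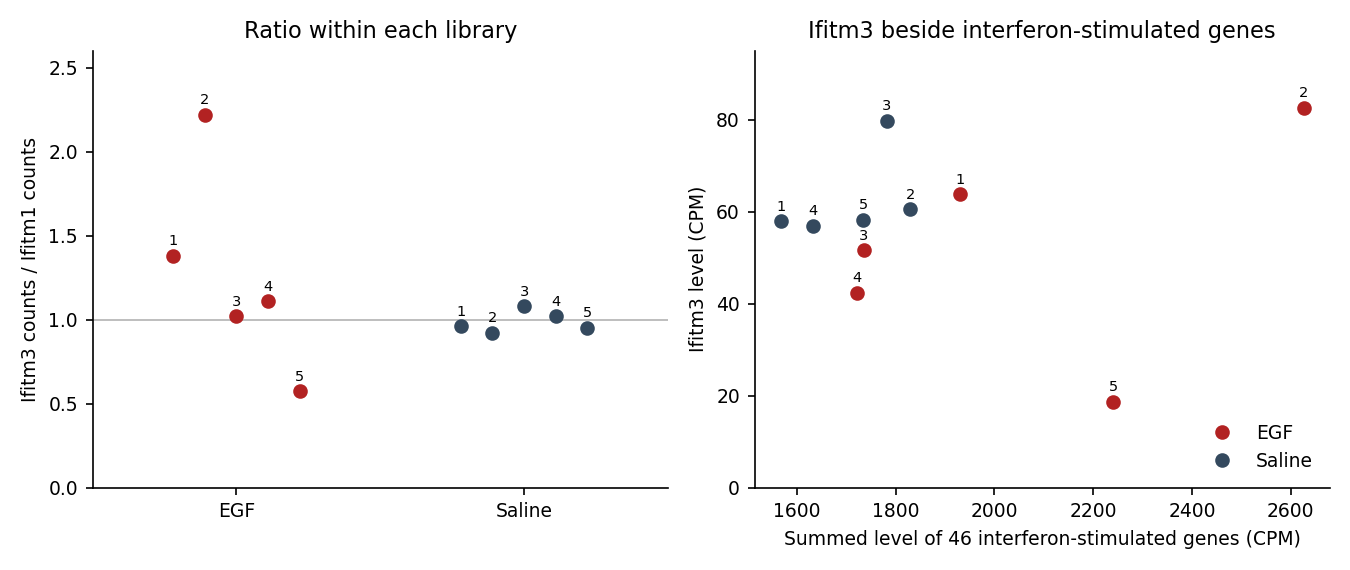
Left, counts of Ifitm3 divided by counts of Ifitm1 in each library (y axis from 0, grey line at a ratio of 1); right, Ifitm3 level (y axis, CPM) against the summed level of 46 interferon-stimulated genes (x axis, CPM), with EGF in red and saline in blue and replicate numbers above the points. Saline libraries lie between 0.923 and 1.08 on the left; on the right, EGF replicate 2 is high on both axes and EGF replicate 5 is high in interferon-stimulated genes and lowest in Ifitm3.

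The genes that followed each member most closely across the 10 libraries, by Pearson r of log2 CPM with the group means removed, are given as a description. Ifitm3 was most like Atp5c1, a subunit of the mitochondrial ATP synthase (r = 0.996), and Cd151, a tetraspanin (0.986), and without EGF replicate 5 these were 0.985 and 0.941. Atp5c1 was at 151, 159, 136, 129 and 99.9 CPM in EGF replicates 1 to 5, against 163, 167, 181, 161 and 161 CPM in saline replicates 1 to 5. Like Ifitm3 it was lowest in EGF replicate 5 and highest within its groups in EGF replicate 2 and Saline replicate 3. Ifitm1 was most like Prdx6, a peroxiredoxin (0.943), Zfp975 (0.922) and 4732440D04Rik (0.918), and without EGF replicate 5 these were 0.913, 0.902 and 0.884. Ifitm2 was most like Nat10, an RNA acetyltransferase (0.93), Zfp275 (0.913) and Snhg4 (0.911), and without that library 0.904, 0.905 and 0.875. The ranking itself depends on that library: over the other 9 libraries the highest were A930033H14Rik (0.951), Trappc8 (0.938) and Cyp4f16 (0.933) for Ifitm1, and Spast (0.97), Klhdc8b (0.968) and Dcaf1 (0.951) for Ifitm2, where r with Dcaf1 was -0.346 over all 10. For Ifitm3 the highest was Atp5c1 in both cases. These are among the highest values of all genes tested and are given without a test. Their libraries share depth and the deviation of EGF replicate 5: the 0.99 quantile of r with Ifitm3 over all genes was 0.942 with that library and 0.847 without it, and the median was 0.355 with it and 0.0201 without it.

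Other genes of the interferon and IFITM pathway were taken from 8 lists, and by edgeR none of their genes passed the test over all genes with all 10 libraries, nor with any 1 library left out. Of 20 interferon ligand genes 17 had no count in any library, and the list summed to at most 0.513 CPM with EGF and 0.905 CPM with saline, at or near the limit of detection. Of 6 receptor genes 5 were tested, with log2 fold changes from -0.33 to 0.10, 2 above 0 and 3 below. Both ends of that range came from EGF replicate 5: without it all 5 lay between -0.21 and -0.05, Ifnar1 at -0.09 and Ifnar2 at -0.10. Ifnar1, a chain of the type I receptor, averaged 65.2 ± 19.0 CPM in EGF libraries and 60.9 ± 2.91 CPM in saline ones (edgeR adjusted p = 0.836), and Ifnar2, its partner, averaged 39.9 ± 16.3 CPM in EGF libraries and 50.2 ± 7.95 CPM in saline ones (adjusted p = 0.72). In EGF replicate 5 these 2 chains were at 97.6 and 11.3 CPM, outside the range of all other libraries in opposite directions.

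Among 13 JAK-STAT and IRF transducers, 10 had a log2 fold change above 0 and 3 below, with a median of 0.19 where that of all genes tested was -0.01. Jak1, a kinase bound to interferon receptors, averaged 332 ± 13.6 CPM in EGF libraries and 302 ± 14.2 CPM in saline ones (log2 fold change 0.14, SE 0.07, edgeR adjusted p = 0.552). The lowest EGF library, at 315 CPM, was barely above the highest saline one, at 314 CPM. All EGF libraries lay above all saline ones for 1.62% of all genes tested. Stat2 averaged 30.6 ± 5.17 CPM in EGF libraries and 22.4 ± 1.28 CPM in saline ones (adjusted p = 0.552), and Irf9, the partner of STAT proteins in that complex, averaged 85 ± 43.8 CPM in EGF libraries and 55.6 ± 5.22 CPM in saline ones (adjusted p = 0.552). Of 10 inhibitors, 5 lay above and 5 below 0, or 4 above and 6 below without EGF replicate 5. Usp18, which blocks the type I receptor, averaged 23.2 ± 17.1 CPM in EGF libraries and 9.70 ± 0.527 CPM in saline ones. Socs3, which curbs cytokine receptors, averaged 14.6 ± 6.39 CPM in EGF libraries and 28.6 ± 6.85 CPM in saline ones, and the groups did not overlap, EGF being lower (log2 fold change -0.96, SE 0.37). Both had an edgeR adjusted p of 0.552. All EGF libraries lay below all saline ones for 1.65% of all genes tested. Without EGF replicate 5, the log2 fold change was 0.77 in place of 1.25 for Usp18 and 0.24 in place of 0.61 for Irf9. For Socs3, at 3.49 CPM in that library, it was -0.72 (SE 0.16) in place of -0.96.

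Most interferon-stimulated genes had a log2 fold change above 0, unlike the members. Of 46 listed, 43 were tested, 39 of them with a log2 fold change above 0 and 4 below, with a median of 0.47 (0.44 without EGF replicate 5), where all 12874 genes tested had 6246 above and 6628 below. In 6 of the 43 the groups separated with EGF higher and in 0 with EGF lower. Over all genes tested the share separated with EGF higher was smaller, 208 of 12874 (1.62%). The list was chosen with earlier results of these data known, and the difference in share was not tested. Their summed level was 1931, 2626, 1735, 1721 and 2241 CPM in EGF replicates 1 to 5, against 1567, 1829, 1782, 1633 and 1734 CPM in saline replicates 1 to 5. EGF replicates 2, 5 and 1 lay above all saline libraries and EGF replicates 3 and 4 within their range. EGF replicate 2, the highest of all, also had the highest Ifitm3 level (82.6 CPM), while its Ifitm1 (37.2 CPM) and Ifitm2 (21.4 CPM) lay below all saline libraries. EGF replicate 5, second in the sum, was the lowest of all libraries for each of Ifitm1, Ifitm2 and Ifitm3. Herc6, a ubiquitin ligase of the HERC family, averaged 33.3 ± 14.1 CPM in EGF libraries and 16.2 ± 3.38 CPM in saline ones (log2 fold change 1.04, SE 0.26, edgeR adjusted p = 0.552). DESeq2 called Herc6 higher (adjusted p = 0.0406), a call made for 0.432% of the genes it tested. Isg15, a ubiquitin-like modifier, averaged 4.20 ± 2.94 CPM in EGF libraries and 2.49 ± 0.577 CPM in saline ones (edgeR adjusted p = 0.639). Like the 3 members, Isg15 was lowest of all libraries in EGF replicate 5, at 0.698 CPM. Its log2 fold change was 0.75 (SE 0.54) with that library and 1.02 (SE 0.33, edgeR adjusted p = 0.195) without it.

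Of 18 other antiviral restriction factors and sensors, 17 were tested, 12 of them above 0 and 5 below, with a median of 0.19, and without EGF replicate 5 it was 11 above and 6 below, with a median of 0.10. Ly6e, a surface protein that hinders coronavirus entry, was at 282, 363, 267, 217 and 160 CPM in EGF replicates 1 to 5, against 282, 293, 329, 345 and 313 CPM in saline replicates 1 to 5 (edgeR adjusted p = 0.613). As for Ifitm3, EGF replicate 2 was the highest and EGF replicate 5 the lowest of all libraries. Bst2, the tetherin that holds budding virus at the membrane, averaged 10.9 ± 7.15 CPM in EGF libraries and 13.4 ± 3.36 CPM in saline ones (adjusted p = 0.877), with 20.0 CPM in EGF replicate 2 and 0.14 CPM in EGF replicate 5. Among further CD225 domain genes, 11 of 12 listed names matched and 1 was tested. That gene, Ifitm7 on chromosome 16, was at 8.65 CPM in EGF replicate 5 and between 0.355 and 1.99 CPM in the other 9 libraries (log2 fold change 1.31, SE 0.69, edgeR adjusted p = 0.561; 0.31 without EGF replicate 5). Ifitm5, the bone member beside Ifitm2, had 0 to 12 counts with EGF and 0 to 7 with saline.

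The list of enzymes, adaptors and partners of IFITM proteins held 22 genes, 1 of which, the transcription factor gene Tfap4, was placed there by mistake. Of the 20 tested, 6 lay above and 14 below 0, with a median of -0.13 (-0.09 without EGF replicate 5). Zdhhc3, a palmitoyltransferase of the Golgi, was at 74.7, 68.5, 67.2, 56.8 and 58.2 CPM in EGF replicates 1 to 5, against 78.8, 86.1, 89.6, 83.6 and 88.5 CPM in saline replicates 1 to 5. The groups did not overlap, with a log2 fold change of -0.39 (SE 0.10, edgeR adjusted p = 0.552). DESeq2 called Zdhhc3 lower (adjusted p = 0.0304), a call made for 0.24% of the genes it tested. Zmpste24, the prelamin A protease that works with IFITM proteins against viruses in human cells, averaged 40.1 ± 6.72 CPM in EGF libraries and 52.5 ± 2.62 CPM in saline ones (log2 fold change -0.39, SE 0.13, edgeR adjusted p = 0.552). Its groups did not overlap either. In 3 of the 20 tested genes all EGF libraries lay below all saline ones, and in 0 above. Over all genes tested 1.65% lay below and 1.62% above. Zdhhc20, a palmitoyltransferase that acts on human IFITM3, averaged 82.0 ± 9.57 CPM in EGF libraries and 78.2 ± 3.53 CPM in saline ones (adjusted p = 0.801). Nedd4, a ubiquitin ligase that marks IFITM3 for turnover, averaged 585 ± 35.9 CPM in EGF libraries and 561 ± 29.1 CPM in saline ones (adjusted p = 0.776). Ap2m1, the adaptor subunit that reads tyrosine-based sorting signals, averaged 90.7 ± 12.6 CPM in EGF libraries and 90.3 ± 2.96 CPM in saline ones (adjusted p = 0.985).

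**Figure D5:**
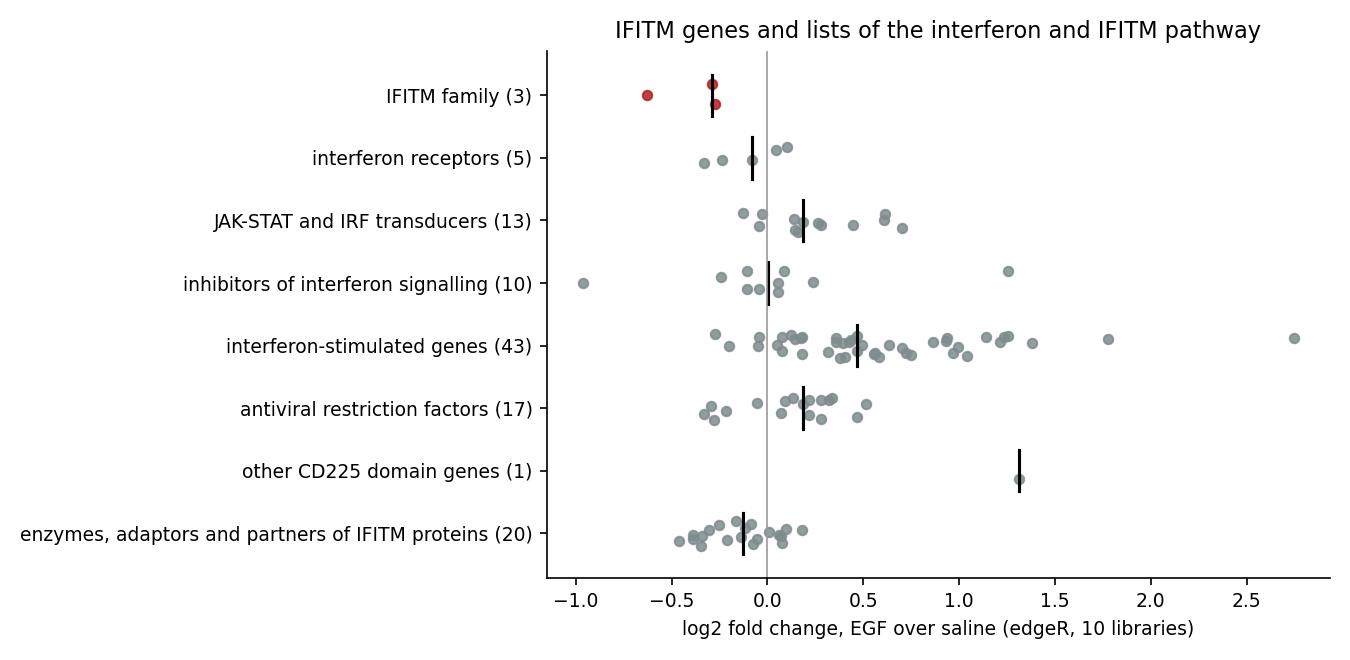
log2 fold change, EGF over saline (x axis), of each tested gene in the IFITM family (red) and in 7 pathway lists (grey), with the number of genes tested in brackets and the list median as a black bar; vertical scatter within a row has no meaning. The 3 members lie below 0, as do 14 of 20 enzymes, adaptors and partners, and 39 of 43 interferon-stimulated genes lie above 0.

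No tested gene near the members separated the groups. Of 20 annotated genes within 100 kb of the members 9 were tested, 7 below and 2 above 0, with a median log2 fold change of -0.08; without EGF replicate 5, 4 lay below and 5 above 0, with a median of 0.01. The smallest edgeR adjusted p among them was 0.552, and 0.196 without that library. With all 10 libraries the lowest was Psmd13, a proteasome subunit, with a log2 fold change of -0.43 (SE 0.24; -0.23 without EGF replicate 5). The highest was Pkp3, a plakophilin of cell junctions, with 1.19 (SE 0.58), which was at 24.8 CPM in EGF replicate 5 and 2.84 to 4.47 CPM elsewhere (0.18 without it). Without EGF replicate 5 the lowest was B4galnt4, a glycosyltransferase, at -0.84 (SE 0.27) in place of -0.13 (SE 0.49) with all libraries, and the highest was Sirt3, a mitochondrial deacetylase, at 0.34 (SE 0.13) in place of 0.55.

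Markers of maturing and other cells differed between libraries as well. All 8 granulocyte progenitor genes had a log2 fold change below 0 (median -0.94), though none passed edgeR's test, and their summed level was 1751 to 2605 CPM with EGF and 1691 to 5513 CPM with saline. The sum of 1691 CPM was Saline replicate 1, below all EGF libraries, while the other saline libraries, at 3033 to 5513 CPM, lay above all EGF libraries. Plasma cell markers summed to 173 to 939 CPM with EGF and 692 to 1491 CPM with saline (6 of 7 genes below 0, median -0.52, and -0.27 without EGF replicate 5). The 173 CPM was EGF replicate 5, and the other EGF libraries lay between 447 and 939 CPM. Saline replicates 3 and 5, at 692 and 724 CPM, lay within that range. Monocyte and macrophage markers summed to 238 to 508 CPM with EGF (to 360 CPM without EGF replicate 5) and 163 to 658 CPM with saline. Of 9 tested 6 lay below 0 (median -0.23), and without EGF replicate 5 all 10 tested did (median -0.33). Endothelial and stromal markers summed to 199 to 921 CPM with EGF and 205 to 1181 CPM with saline. Of 9 tested 6 lay below 0 (median -0.12), and without EGF replicate 5 all 9 did (median -0.21). Late neutrophil markers summed to 549 CPM in EGF replicate 5 and 9.81 to 98.2 CPM in the other EGF libraries, against 16.1 to 392 CPM with saline. Of 7 tested 5 lay above and 2 below 0 (median 0.19). Without EGF replicate 5, of 8 tested 1 lay above and 7 below (median -1.59). Dendritic cell markers summed to 349 to 464 CPM with EGF and 339 to 451 CPM with saline, erythroid markers to 258 to 439 CPM with EGF (from 335 CPM without EGF replicate 5) and 272 to 334 CPM with saline, megakaryocyte markers to 209 to 363 CPM with EGF and 200 to 369 CPM with saline, and B cell markers to 16.7 to 47.7 CPM with EGF (to 28.6 CPM without EGF replicate 5) and 22.7 to 32.4 CPM with saline. Without EGF replicate 5, all 7 tested dendritic cell genes lay above 0, where 4 of 7 did with all libraries. For erythroid genes 7 of 9 then lay above 0 in place of 4 of 7, and for B cell genes 1 of 5 in place of 3 of 4. None of the genes in these lists passed edgeR's test with all libraries or without EGF replicate 5. No gene of these lists was at 0 in every library, and the part of these cells in the levels of the members was not tested.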

How the data were processed

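The deposited values were whole-number counts of reads per Ensembl gene, 1 file per library. Per the labels' protocols, libraries came from a Clontech kit, after rRNA depletion, with PCR amplification. The submitters' processing notes name bcl2fastq 2.17, STAR, GRCm38 and mm10; no source used here states the counting tool, strand setting or annotation, so overlapping genes on opposite strands cannot be told apart. Of 55573 identifiers, 55394 were in GENCODE M21.

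The counts were fitted with edgeR 4.0.16 (R 4.3.3): TMM scaling, filterByExpr (minimum count 10), the quasi-likelihood test over all 10 libraries, Benjamini-Hochberg adjustment, threshold 0.05. Standard errors came from the F statistic. Log2 CPM for correlations used a prior count of 2, with exact permutation over the 14400 arrangements within groups. Fits were tested on simulated data. Alternatives were other scalings and filters, DESeq2 1.42.0, limma-voom (limma 3.58.1), the replicate block and each library left out.

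No 2 libraries agreed within sampling noise (chi-square over degrees of freedom from 5.48 to 114). Totals of 6805106 to 8370820 counts leave counting errors of 3.85% to 8.64% for Ifitm1, Ifitm2 and Ifitm3; PCR copies cannot be told apart, so these and the 3-count limits cover counting error only. The members and all 19 gene lists (8 of pathways, 11 of cell types) were chosen with earlier results of these data known. Genes were named by a written rule, chosen with the same knowledge: the members, the 2 genes of smallest p or all that passed in each pathway list, fixed pathway and marker genes, tested neighbours within 100 kb, and the 3 genes most correlated with each member. Not every gene so taken is printed, and some results are not reported here.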

Additional observations from a re-analysis of the deposited data

Results flagged for a closer look

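Dixon's criterion for 1 library far from the other 4 of its group was applied to 148 sets of values and met by 18, where chance gives about 1 in 20; 12 of the 18 were EGF replicate 5. In saline libraries, Ifitm3 was at 79.8 CPM in Saline replicate 3 and 57.0 to 60.6 CPM in the rest, the sum of the 4 members at 182 CPM in that library and 139 to 151 CPM in the rest, and Atp5c1, the gene most like Ifitm3, at 181 CPM there and 161 to 167 CPM in the rest. Saline replicate 4 stood apart for Adar (90.3 CPM, 106 to 110 in the rest), Zdhhc20 (84.4 CPM, 75.8 to 77.3) and the neutrophil gene S100a8 (61.2 CPM, 2.66 to 12.9).

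Among EGF libraries, EGF replicate 5 was low for Ifnar2 (11.3 CPM, 43.1 to 50.8 in the rest of the group) and Socs3 (3.49 CPM, 15.4 to 19.2). It was high for Ifngr2 (39.6 CPM, 19.8 to 20.2), Irf9 (161 CPM, 54.0 to 80.7), Herc6 (58.3 CPM, 23.9 to 28.9), Ifitm7 (8.65 CPM, 0.898 to 1.99), Zdhhc20 (98.5 CPM, 74.9 to 81.6), Sirt3 (80.0 CPM, 40.7 to 48.9), B4galnt4 (29.2 CPM, 5 to 8.93) and Pkp3 (24.8 CPM, 3.62 to 4.47). In that library the inhibitors of interferon signalling summed to 957 CPM, against 741 to 792 CPM in the rest of the group, and the late neutrophil markers to 549 CPM, against 9.81 to 98.2 CPM.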

How the results depend on the processing

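The log2 fold changes of Ifitm1, Ifitm2 and Ifitm3 kept their sign in all 19 alternatives and moved by less than the SD between libraries, 0.21, 0.14 and 0.59. With 1 library left out they ranged from -0.72 to -0.56, from -0.34 to -0.23 and from -0.51 to -0.06. For Ifitm1 and Ifitm2, whose groups did not overlap, leaving 1 library out could hardly reverse the sign. With the replicate number as a block the log2 fold changes were -0.64, -0.29 and -0.40, and the number of genes called was 0. Same-numbered libraries did not deviate together (correlations -0.0782 to 0.0192), which cannot exclude that they shared a batch or were paired. Ifitm6 was fitted only without the filter, at -0.80 (SE 0.86). The number of genes called, 1 by edgeR, was also 0 with library size scaling, 56 with DESeq2, 12 with sample quality weights and 0 to 8 with 1 library left out, most without EGF replicate 5. The number of genes whose groups did not overlap, 421, was 486 to 936 with 1 library left out, where fewer libraries make separation easier. Pathway genes called were 0, and 2 with DESeq2. Correlations with 1 library left out ranged from -0.144 to 0.499 for Ifitm1 and Ifitm2, 0.149 to 0.858 for Ifitm1 and Ifitm3 (highest without EGF replicate 2, exact permutation p 0.00868, not adjusted), -0.488 to 0.199 for Ifitm1 and Ifitm6, -0.0899 to 0.582 for Ifitm2 and Ifitm3, -0.37 to 0.546 for Ifitm2 and Ifitm6 and -0.248 to 0.512 for Ifitm3 and Ifitm6; each was lowest without EGF replicate 5. For Ifitm1 and Ifitm6, r was 0.0685 with library size scaling and 0.154 with a prior count of 0.5. The cause was not tested. Coefficients of variation with 1 library left out, and the neighbours and cell type calls without EGF replicate 5, were added after seeing the data.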
